A study of Mus musculus with 8 samples.

Results

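The cells described here are the basophil and mast cell progenitors of mouse bone marrow, and they were selected on 4 transcripts. From all 8 libraries, cells with 1000 or more unique molecular identifiers (UMIs, counted RNA molecules) and under 10% of UMIs in mitochondrial genes were kept. A kept cell was a member if it held 1 or more UMIs of Ms4a2, 5 or more of Cpa3, fewer than 3 of Pf4 and fewer than 2 of Klf1. Of 59465 barcodes, 46159 were kept and 1403 met this gate, which is 3.04% of kept cells. The libraries hold Lineage- c-Kit+ haematopoietic stem and progenitor cells of wild-type animals, 1 mouse per library, captured by droplet single-cell RNA sequencing. At each of 4 ages there was 1 male and 1 female: young (14 weeks), middle-aged (50 weeks), old (78 weeks for the male, 79 for the female) and very old (95 weeks). No strain is named in the labels and no mouse received a treatment in them. The question was whether these progenitors differ in number or in transcript content between the ages, with the mouse as the replicate. Older mice below are the 4 old and very old mice together, compared with the 2 young mice.

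Basophils and mast cells are the granulocytes of IgE responses: both carry the high-affinity IgE receptor, store histamine and proteases in granules, and release them when antigen cross-links the bound IgE. Both arise from c-Kit+ progenitors in the marrow that depend on the transcription factor GATA2, and mast cell precursors leave the marrow and complete their granule content in tissues. The receptor is built from an alpha chain that binds IgE (Fcer1a), a beta chain that amplifies the signal (Ms4a2) and a gamma chain that carries it into the cell and is shared with other receptors (Fcer1g).

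The libraries had between 6459 and 8866 barcodes. Median UMIs per member were 16908 and 15416 in the young male and female, 16846.5 and 17813.5 at 50 weeks, 12425 and 11841 in the old mice and 14459 and 9831 in the very old mice, so members of older mice were read less deeply. Shares of cells with a UMI are therefore given either after thinning each cell to 4500 UMIs, which left out 49 members, or in all UMIs, as stated beside each. Thinning keeps a random part of a cell's UMIs, so a share is given either from 1 random draw or as the exact mean over all possible draws. By their library names the 2 very old mice belong to another library series than the other 6 mice, and so the age of 95 weeks and that series cannot be told apart. Among all barcodes 467 occurred in more than 1 library, 23 of them members. Nothing in the labels says whether litters or cages were shared, so exact permutation p-values measure the spread between these mice. In the edgeR tests the spread of a gene was drawn toward that of all genes (14.3 prior against 3 residual degrees of freedom). Their p-values and SEs therefore do not measure the spread of that gene between the mice alone.

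Transcripts that the rule did not use were checked against the label. Hdc, the histamine-forming enzyme, had a UMI in 81.7% of members in all UMIs. As the mean over all thinnings it was found in 48.4% to 59% of members of the 8 mice, against 11.1% to 19.8% of Mpo-gated cells (neutrophil and monocyte progenitors with 10 or more Mpo UMIs and no Ms4a2). Mpo-gated cells also held fewer than 5 Cpa3 UMIs and lay under the Pf4 and Klf1 limits of the gate. Cells with 5 or more Cpa3 UMIs and no Ms4a2 were thereby left out of them. What this did to their Hdc share was not tested. The Hdc level was between 175 and 222 CPM (UMIs of the gene scaled to a common library total) in members of the 8 mice against 15.9 to 31 in the other kept cells. Gata2 lay between 248 and 350 CPM in members and between 43.2 and 93.9 elsewhere. Beside the 2 genes of the rule, the genes highest in members relative to other kept cells included the basophil proteases Prss34 and Mcpt8, the mast cell chymase Cma1, granzyme B (Gzmb) and the leukotriene enzyme Alox5. These cells were chosen by Ms4a2 and Cpa3, so such contrasts are descriptions and were not tested. Prg2, the eosinophil major basic protein, also stood among them, at 311 to 2509 CPM. Members held Mpo as well. In all UMIs its median per member was 9 in the very old female and between 16 and 36 in the other mice. Many members therefore also reached the 10 Mpo UMIs of the comparison cells. Of the 1403 members, 632 (45%) had no UMI of Mcpt8, of the mast cell proteases counted below, or of Epx or Prg3. At the edge of the gate and in all UMIs, of 241 cells with exactly 1 Ms4a2 UMI 66.4% had an Hdc UMI, and of 2152 cells with 5 or more Cpa3 UMIs and no Ms4a2 UMI 68.5% did. Of 384 members with 5 to 9 Cpa3 UMIs 71.4% had an Hdc UMI, and of 617 cells with Ms4a2 but only 1 to 4 Cpa3 UMIs 47.5% did.

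Members made up 3.62% of kept cells in the young male (95% Wilson interval 3.14 to 4.17) and 2.65% in the young female (2.3 to 3.05). At 50 weeks the shares were 4.97% and 3.46%, in the old mice 3.47% and 2.97%, and in the very old mice 1.91% and 2.02%. Both very old mice lay below the other 6, and the old mice lay within the range of the young pair. That order depended on the cell filter: among cells under 5% mitochondrial UMIs the shares were 4.5% and 2.93% in the young mice, 5.91% and 3.89% at 50 weeks, 4.78% and 3.75% in the old mice and 2.81% and 3.52% in the very old mice, where the very old female was above the young female and the old male above both young mice. The older minus young difference there was -0.00109 percentage points. The intervals cover counting error only, and with under 10% mitochondrial UMIs those of the middle-aged male (4.4 to 5.61) and female (2.99 to 4.01) did not overlap. With that filter the older mice averaged 2.59% ± 0.753 (SD, n = 4) against 3.13% ± 0.69 (SD, n = 2) in young mice, a difference of -0.543 percentage points (exact two-sided permutation test, p = 0.467, adjusted 0.8 over 3 measures; 2 against 4 mice cannot go below 0.067). Along age in weeks, Pearson's r was -0.44 (exact permutation p = 0.28) and Spearman's rho was -0.61 (exact permutation p = 0.121) over the 8 mice. With the young pair, whose ages lie farthest from the median, left out, r was -0.88. Within the 6 mice of 1 library series r was 0.09 (exact permutation p = 0.928). In all, 3 measures were related to age in this way, and the adjusted exact permutation values for this share were 0.643 for r and 0.362 for rho.

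The gate counts raw UMIs, so a cell with more UMIs meets its lower limits more easily. When every cell was first thinned to 4500 UMIs, 1.63% and 1.07% of cells met the gate in the young mice, 2.44% and 1.5% at 50 weeks, 1.95% and 1.4% in the old mice and 0.902% and 1.07% in the very old mice. The older minus young difference then was -0.018 percentage points. Without thinning and without the very old libraries, a choice made after the data were seen, the difference was 0.084 percentage points. The Klf1 limit left out more such cells in each young mouse than in each older mouse. No setting varied that limit, so its effect on the shares was not tested. A share of kept cells does not tell fewer members from more of the other cells.

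**Figure D1:**
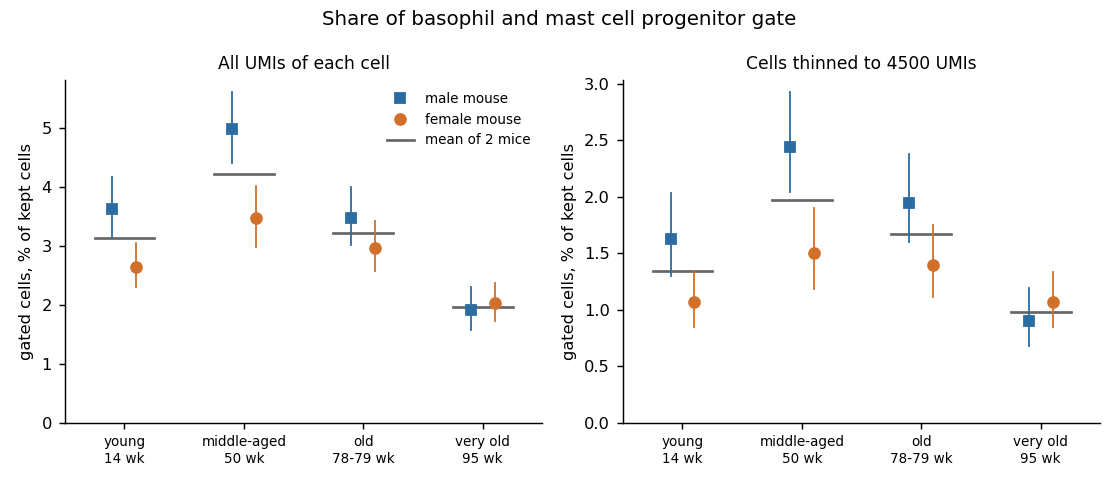
Members as a percentage of kept cells in each mouse (y axis) by age (x axis), with all UMIs on the left and after thinning each cell to 4500 UMIs on the right. Squares are males and circles females, vertical lines are 95% Wilson intervals and grey bars are means of 2 mice; with all UMIs the very old mice, at 1.91% and 2.02%, are the lowest, and after thinning the very old female, at 1.07%, is level with the young female.

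Within the gate, cells with a UMI of Mcpt8, the protease that marks basophils in the mouse, did not separate the older from the young mice. In 1 random thinning they were 25.1% and 38% of members in the young mice, 37.1% and 28.9% at 50 weeks, 41.2% and 22.4% in the old mice and 27.4% and 39.6% in the very old mice. The 2 sexes were in opposite order at different ages, and the groups overlapped throughout. The young mean was 31.6% ± 9.12 (SD, n = 2), and the older mean was 32.6% ± 9.23 (SD, n = 4) (exact permutation test, p = 0.8). The difference was 1.04 percentage points. The draw moved single mice: as the mean over all thinnings the shares were 25.8% and 36.5% in the young mice, 37.8% and 32.7% at 50 weeks, 41.6% and 25.3% in the old mice and 24.5% and 38.7% in the very old mice, a difference of 1.37 points (exact permutation test, p = 0.8). On that measure the difference was 3.04 points with the stricter gate (2 Ms4a2 and 10 Cpa3 UMIs), 1.22 with the looser gate (2 Cpa3 UMIs) and 3.56 under 5% mitochondrial UMIs, with the groups overlapping in each. Without thinning it was -4.73 points, beside the fewer UMIs of older members.

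Cells with a UMI of a mast cell protease (Cma1, Tpsb2, Tpsab1, Mcpt1 or Mcpt4) were rare. In the same thinning they were 2.23% and 5.98% of members in the young mice, 2.86% and 6.29% at 50 weeks, 3.95% and 2.94% in the old mice and 5.66% and 7.46% in the very old mice (older against young, exact permutation test, p = 0.6). As the mean over all thinnings they were 2.68% and 6.43% in the young mice, 3.05% and 6.3% at 50 weeks, 5.1% and 3.2% in the old mice and 6.31% and 6.67% in the very old mice (exact permutation test, p = 0.733). In all UMIs, 94 of 1403 members had such a transcript, and 69 of those 94 also had Mcpt8. Along age, r was 0.06 for the Mcpt8 share (exact permutation p = 0.869) and 0.32 for the mast cell protease share (exact permutation p = 0.429), and Spearman's rho was 0.06 (exact permutation p = 0.898) and 0.38 (exact permutation p = 0.354). Within the 6 mice of 1 library series r was 0.01 for the Mcpt8 share (exact permutation p = 0.978) and turned to -0.16 for the mast cell protease share (exact permutation p = 0.756).

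Members with Mcpt8 differed from those without it in the same direction in every mouse for many genes, which describes how the gate is built. Prss34 averaged 619 CPM in members with Mcpt8 and 11 in those without, Epx 70.7 against 1.56, Prg2 1513 against 63 and Cebpe, a granulocyte transcription factor, 187 against 47.8. Meis1 and Mef2c, transcription factors of earlier progenitors, were lower in members with Mcpt8 in all 8 mice, at 45.6 against 82 CPM and 37.7 against 66.3 CPM. These cells were split by a measured transcript and no test was made.

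In older mice Fcer1a, the IgE-binding chain, was higher in members than in young mice, and Fcer1g was not called. Its level was 18.6 CPM in the young male and 59.8 in the young female, 190 and 160 at 50 weeks, 353 and 159 in the old male and female, and 149 and 476 in the very old male and female. All 6 mice of 50 weeks and above lay over both young mice, and the older ages overlapped one another. The older minus young log2 fold change was 2.91 (SE 0.42), a 7.51-fold rise (edgeR quasi-likelihood test, Benjamini-Hochberg adjusted p = 0.0117). At 50 weeks the log2 fold change from young mice was 2.24 (edgeR adjusted p = 0.104), and between old and very old mice it was 0.17 (edgeR adjusted p = 0.938).

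Ms4a2 was 444 and 414 CPM in the young mice, 491 and 425 at 50 weeks, 550 and 507 in the old mice and 332 and 513 in the very old mice. It is a gene of the rule, so its level is a description. Fcer1g was 253 and 281 CPM in the young mice, 245 and 274 at 50 weeks, 377 and 238 in the old mice and 257 and 410 in the very old mice, a log2 fold change of 0.27 (SE 0.16, edgeR adjusted p = 0.86). The old male and very old female had the highest values of both Fcer1a and Fcer1g.

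**Figure D2:**
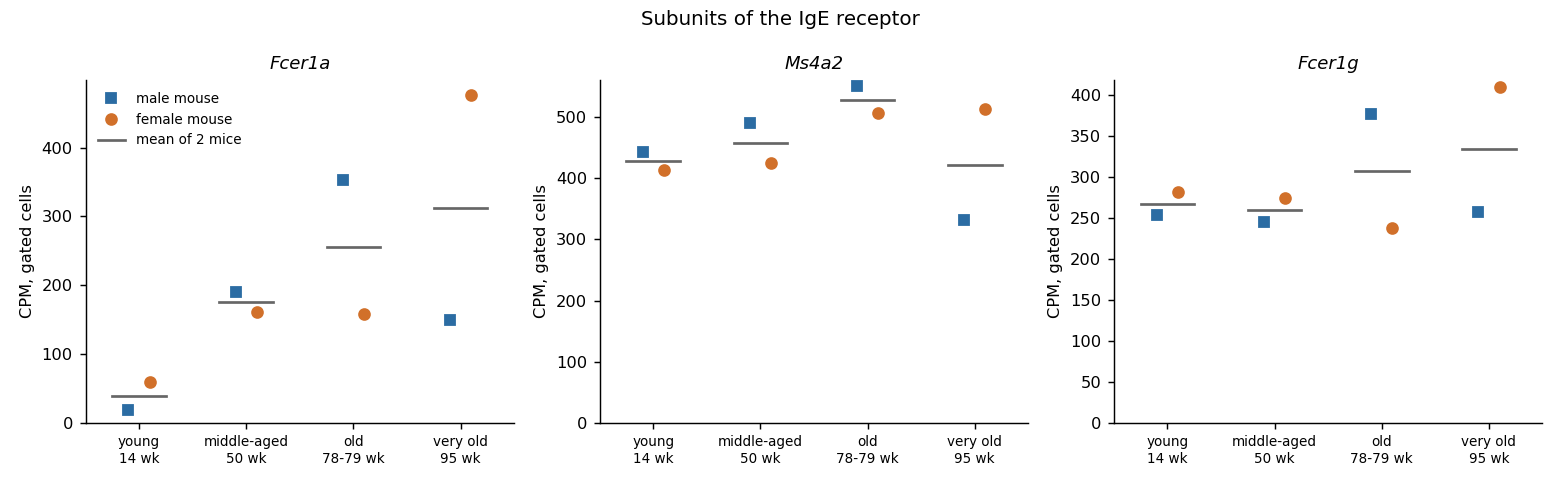
Level in CPM (y axis) of the 3 IgE receptor subunits in the summed members of each mouse, by age (x axis). Squares are males, circles females and grey bars means of 2 mice; Fcer1a is at 18.6 and 59.8 CPM in the young mice and between 149 and 476 in the other 6, while the groups overlap for Ms4a2 and Fcer1g.

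The share of members with the transcript followed the level. As the mean over all thinnings, 6.09% and 17.1% of members of the young male and female had a Fcer1a UMI, 36.3% and 40.1% at 50 weeks, 47.1% and 34.7% in the old mice and 33.2% and 58% in the very old mice. Unthinned, the shares were 11.9% and 29.4% in young mice and between 46.2% and 70.7% in the other 6. In Mpo-gated cells between 0.0159% and 0.27% had one on the same measure. Their median depth was 16006 to 26517 UMIs, and the shares in members were above theirs. Mpo-gated cells were chosen with few Cpa3 UMIs and no Ms4a2. What that choice did to their Fcer1a share was not tested. No single cell decided the level: the cell with the most Fcer1a UMIs held between 4.26% and 13.8% of them in each mouse.

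**Figure D3:**
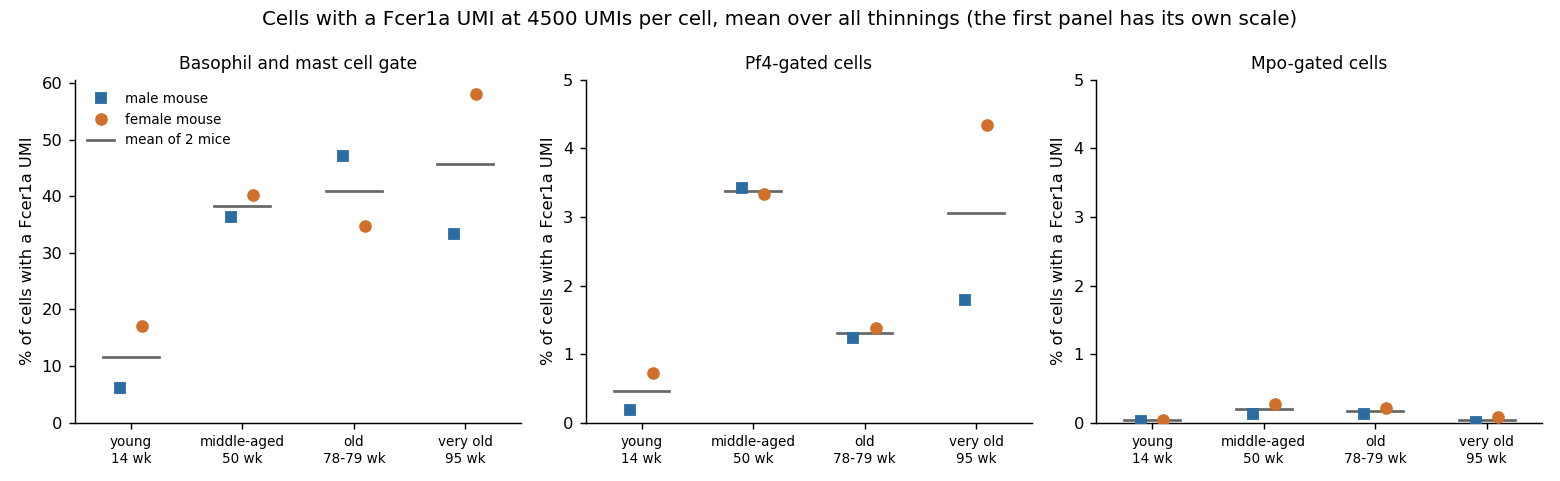
Percentage of cells with a Fcer1a UMI at 4500 UMIs per cell, as the mean over all thinnings (y axis), by age (x axis) in the gate, in Pf4-gated cells and in Mpo-gated cells, with a wider scale for the gate. Squares are males, circles females and grey bars means of 2 mice; in the gate the young mice are at 6.09% and 17.1% and the others between 33.2% and 58%, and Mpo-gated cells stay at or under 0.27%.

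Both young mice lay below the other 6 in members with and in members without Mcpt8. In members with Mcpt8, Fcer1a was 24.2 and 85.8 CPM in the young mice and between 171 and 545 in the other 6. In members without Mcpt8 it was 13.4 and 19.6 CPM in the young mice and between 111 and 326 in the others. Within each of the 8 mice it was higher in members with Mcpt8. Fcer1a was also higher outside the gate: in Pf4-gated cells, megakaryocyte-lineage cells with 3 or more Pf4 UMIs and no Ms4a2, it was 0.296 and 2.2 CPM in the young mice and between 3.1 and 11.3 in the others, an older minus young log2 fold change of 1.99 (SE 0.5, edgeR adjusted p = 0.0436). Pf4-gated cells also held fewer than 5 Cpa3 UMIs and fewer than 10 Mpo UMIs. The age difference in members minus that in Pf4-gated cells was 0.66 (SE 0.51, edgeR adjusted p = 0.96), and minus that in Mpo-gated cells 1.1 (SE 0.92, edgeR adjusted p = 1), so a difference between members and those cells was not shown. Fcer1g did differ from Pf4-gated cells, where its own log2 fold change of -0.44 was not called (edgeR adjusted p = 0.0777). The age difference in members minus that in Pf4-gated cells was 0.64 (SE 0.14, edgeR adjusted p = 0.0217). It is given for the main setting only. The 24 genes called in this comparison became 4 with DESeq2 and 8 under 5% mitochondrial UMIs.

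The Fcer1a call rests on both young mice. Without the young male the adjusted p from edgeR was 0.462 (log2 fold change 2.26), and without the young female 0.0558 (log2 fold change 3.9). With DESeq2 it was 0.332, at a log2 fold change of 2.96. With sums of thinned cells it was 0.00261, at a log2 fold change of 2.45.

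The 3 subunit genes lie on mm10 (GRCm38) at chr1:173221284-173227214 for Fcer1a, chr1:171229572-171234365 for Fcer1g and chr19:11615523-11623719 for Ms4a2, all protein-coding genes on the minus strand by GENCODE M21. The 250 bases before each RefSeq start are shown (GRCm38.p6) for the 3 chains of 1 receptor. RefSeq places the start of Fcer1a upstream of the GENCODE one and that of Fcer1g inside the GENCODE gene, so the Fcer1g stretch overlaps the first bases of that gene, and only the Ms4a2 stretch abuts the GENCODE start. They span chr1:173227230-173227479, chr19:11623720-11623969 and chr1:171234350-171234599 for Fcer1a, Ms4a2 and Fcer1g, written 5′ to 3′ on the minus strand. Capitals mark 4 motifs, each sought on both strands, that GATA factors are known to bind: AGATAA, then TGATAA, then AGATAG, and finally TGATAG.
Fcer1a: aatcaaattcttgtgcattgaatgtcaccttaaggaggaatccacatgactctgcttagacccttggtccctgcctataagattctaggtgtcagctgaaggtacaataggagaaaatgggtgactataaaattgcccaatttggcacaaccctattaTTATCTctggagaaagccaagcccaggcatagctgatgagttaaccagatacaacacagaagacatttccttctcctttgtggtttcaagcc
Ms4a2: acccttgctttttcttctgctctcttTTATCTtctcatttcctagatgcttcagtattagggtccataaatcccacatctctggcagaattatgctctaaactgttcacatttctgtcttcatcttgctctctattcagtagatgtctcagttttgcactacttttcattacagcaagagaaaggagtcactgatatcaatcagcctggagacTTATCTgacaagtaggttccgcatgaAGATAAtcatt
Fcer1g: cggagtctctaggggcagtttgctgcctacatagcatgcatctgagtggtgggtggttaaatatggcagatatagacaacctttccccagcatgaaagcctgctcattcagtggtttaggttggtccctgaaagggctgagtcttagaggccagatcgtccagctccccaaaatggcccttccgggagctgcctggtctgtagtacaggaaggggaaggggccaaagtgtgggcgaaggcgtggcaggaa
The Fcer1a stretch held 1 match, that of Ms4a2 held 3 and that of Fcer1g held 0. Of 32851 such stretches in the table, 26.5% hold 1 or more, so a match is common and describes the letters only.

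Few genes were called over the whole transcriptome. Of 10168 genes tested in the summed members, 4 were higher and 4 lower in older mice at an adjusted p under 0.05, which is 0.0393% of genes in each direction. At an unadjusted p under 0.05, 314 were higher (3.09%) and 294 lower (2.89%). All 4 older mice lay above both young mice for 573 genes (5.64%) and below both for 585 (5.75%). The median log2 fold change over all genes was -0.0012, with 5054 positive and 5114 negative signs. DESeq2 called 1 gene higher (AY036118) and 1 lower (Dntt), so each list below with 0 calls by edgeR also had 0 by DESeq2.

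Beside Fcer1a, Tnfsf13 and Cenpv were higher, with all 4 older mice above both young mice. Tnfsf13 encodes APRIL, a cytokine that sustains plasma cells. It was 11.5 and 19.5 CPM in the young mice, 35.1 and 36.5 at 50 weeks, 52.1 and 36.3 in the old mice and 27.4 and 36.5 in the very old mice, 2.46-fold higher in older mice (log2 fold change 1.3, SE 0.22, edgeR adjusted p = 0.027). Cenpv, a protein of centromeres and the spindle, was 37 and 48.9 CPM in the young mice, 73.5 and 78.2 at 50 weeks, 57.5 and 66.9 in the old mice and 88.4 and 76.2 in the very old mice (log2 fold change 0.75, SE 0.13, edgeR adjusted p = 0.027). The middle-aged mice were above the young mice for both genes. Neither call held when either young mouse was left out: edgeR adjusted p was 0.994 and 0.0558 for Tnfsf13, and 1 and 0.142 for Cenpv, without the male and without the female. For Tnfsf13 it was also 0.0904 without the very old female. Without the very old libraries the Cenpv log2 fold change was 0.53 (edgeR adjusted p = 0.263). Over 11 alternative settings Tnfsf13 was called in 6 and Cenpv in 3, against 10 for Fcer1a.

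Outside the gate, Cenpv rose in Mpo-gated cells (log2 fold change 0.95, edgeR adjusted p = 0.0119) and in Pf4-gated cells (0.67, edgeR adjusted p = 0.00963). The age differences in members minus those cells were -0.22 (SE 0.15) and 0.05 (SE 0.17). Tnfsf13 was not called in either (log2 fold change 0.97 with an edgeR adjusted p of 0.089, and 0.64 with 0.199). Its differences were 0.34 (SE 0.18) and 0.58 (SE 0.29), and neither gene's difference was called.

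The remaining 5 called genes did not meet the rule's limits on mean level and overlap of the groups. AY036118, Dntt and Prg3 were named by its other parts, while Hmga2 and Hmox1 were picked once their values were known. AY036118, a long non-coding RNA, was 159 and 177 CPM in the young mice, 150 and 183 at 50 weeks and 184, 172, 338 and 364 in the 4 older mice (log2 fold change 0.58, edgeR adjusted p = 0.027). Without the very old libraries its log2 fold change was 0.08 (edgeR adjusted p = 0.925), and it was not called without either young mouse (0.863 and 0.575) and passed in 5 of 11 alternative settings. Dntt, the template-free polymerase of early lymphoid cells, was 14.9 and 36.7 CPM in the young mice, 2.47 and 2.8 at 50 weeks, 1.16 and 6.12 in the old mice and 0 and 2.6 in the very old mice (log2 fold change -3.57, SE 0.35, edgeR adjusted p = 7.96e-05). These are few molecules: the young male had 52 Dntt UMIs in 14 members, and 1 cell held 71.2% of them, and in the young female 1 cell held 52.3% of 111. With likely doublets left out, the Dntt difference was -2.66 with an edgeR adjusted p of 0.851, and with the looser gate (2 or more Cpa3 UMIs) it was -1.52 with an edgeR adjusted p of 0.63. Without the young female it was -3.57 with an edgeR adjusted p of 0.0746.

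Hmga2, a chromatin protein of young and fetal stem cells, was 14.6 and 11.9 CPM in the young mice, 3.15 and 4.67 at 50 weeks and between 1.3 and 4.27 in older mice (log2 fold change -2.38, SE 0.36, edgeR adjusted p = 0.0117). Its molecules were spread, over 33 and 26 members of the young mice. Hmox1, the haem-degrading oxygenase, was 8.6 and 16.5 CPM in the young mice, 3.15 and 9.35 at 50 weeks and between 1.75 and 4.56 in older mice (log2 fold change -2, SE 0.35, edgeR adjusted p = 0.0318). Neither gene was called when the young male was left out (edgeR adjusted p = 0.625 for Hmga2 and 0.444 for Hmox1) or the young female (0.142 and 0.926). Hmox1 was also not called without the old female (edgeR adjusted p = 0.141) or the very old female (0.178), and it passed in 4 of 9 alternative settings, against 8 of 10 for Hmga2.

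Prg3, an eosinophil granule protein related to Prg2, was lower in older mice but not separated. It was 107 and 175 CPM in the young mice, 106 and 86.6 at 50 weeks, 19.3 and 45.1 in the old mice and 56.1 and 164 in the very old mice (log2 fold change -1.28, SE 0.22, edgeR adjusted p = 0.027). The very old female exceeded the young male. Without the young male the adjusted p from edgeR was 0.444, and without the young female 0.792, and it was called in 4 of 11 alternative settings.

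Eosinophil granule genes as a group were carried by a few members. Of the 10 eosinophil genes listed 7 were tested, 1 was called lower (Prg3) and 5 had an unadjusted p under 0.05 in the same direction, with a median log2 fold change of -1.37. Prg2 was 818 and 2500 CPM in the young mice, 888 and 400 at 50 weeks, 320 and 416 in the old mice and 535 and 1208 in the very old mice (log2 fold change -1.48, SE 0.31, edgeR adjusted p = 0.121). The Prg2 value depended on single mice: it was -2.09 without the young male and -0.61 without the young female. Of 11 alternative settings it was called in 1, that with no low-count filter. Without both very old libraries, a choice made after the data were seen, it was -2.13 (edgeR adjusted p = 0.00578). Epx, eosinophil peroxidase, was 17.5 and 92.2 CPM in the young mice, 24.1 and 9.66 at 50 weeks, 1.93 and 8.31 in the old mice and 105 and 52.1 in the very old mice. The young female had the highest level of Prg2 and Prg3, and the old male the lowest of all 3 genes. In the very old male 1 cell held 87.2% of the Prg2 UMIs and 91.3% of the Epx UMIs.

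In all UMIs, 122 of the 1403 members had an Epx or Prg3 transcript, and 101 of those 122 had Mcpt8. Their share was 7.57% and 13.4% in the young mice, 10.9% and 8.24% at 50 weeks, 4.97% and 8.38% in the old mice and 4.72% and 8.84% in the very old mice. The defining eosinophil receptor Il5ra was between 1.54 and 4.56 CPM, and Siglecf between 32.6 and 50.1 CPM. Whether cells on the eosinophil path within the gate set these levels was not tested.

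**Figure D4:**
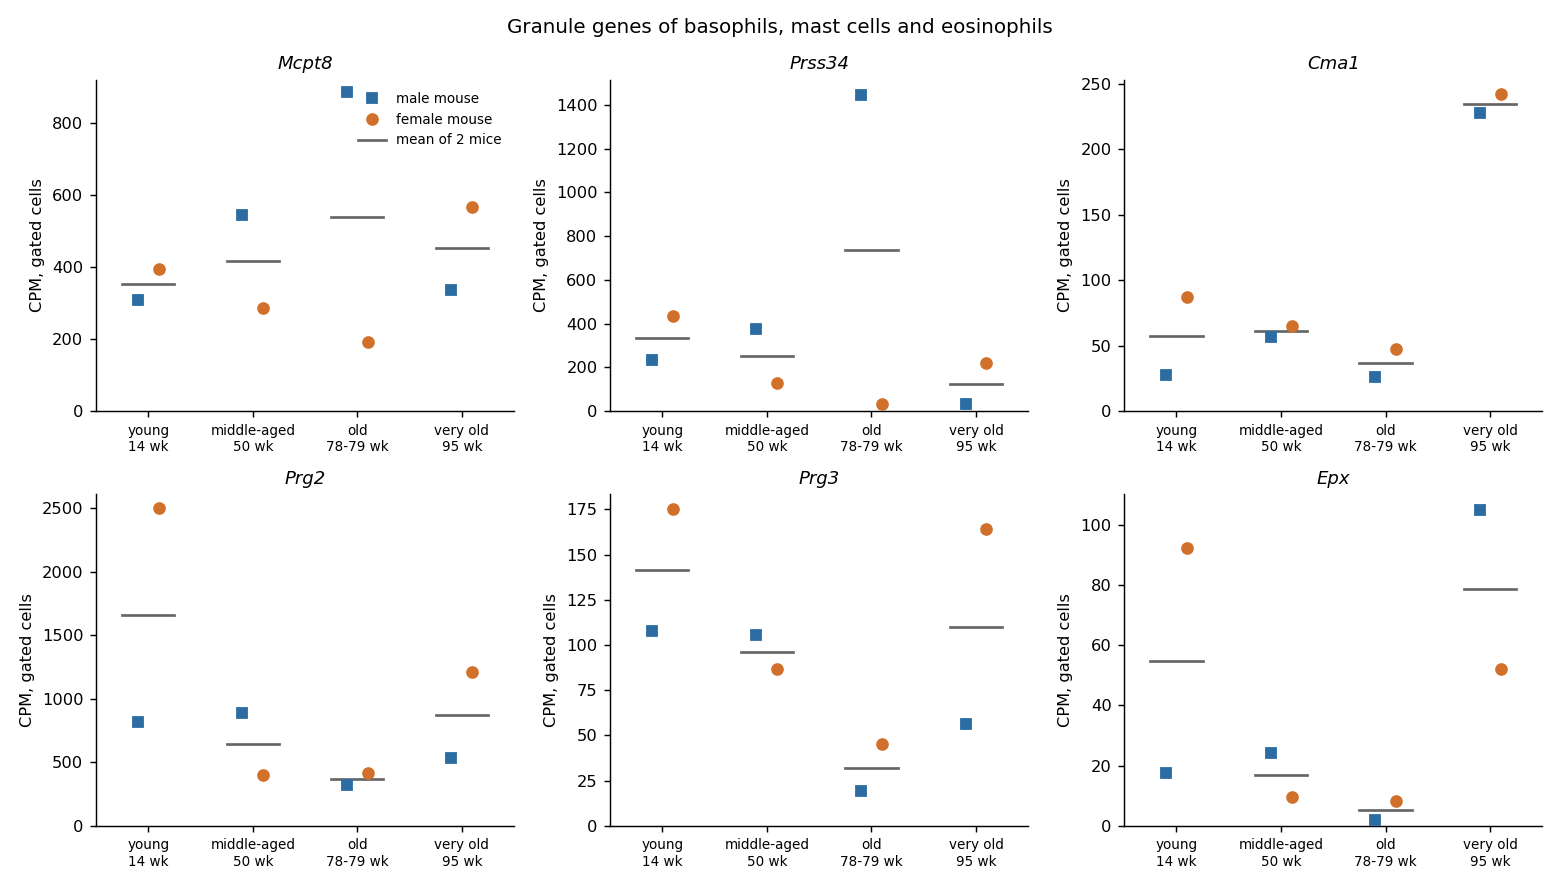
Level in CPM (y axis) of 6 granule genes in the summed members of each mouse, by age (x axis). Squares are males, circles females and grey bars means of 2 mice; Cma1 is at 227 and 242 CPM in the very old mice and at or under 86.9 in the others, Prss34 reaches 1444 in the old male, and Prg3 is lowest in the old pair at 19.3 and 45.1.

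The granule proteases and serglycin list had 15 genes, of which 10 were tested and 0 were called in older against young mice (edgeR), 4 having an unadjusted p under 0.05 upward and 1 downward, with a median of 0.31. Cpa3, a gene of the rule, is in this list and is 1 of those 4, so these figures rest in part on what chose the members. Cma1, the mast cell chymase, was 27.8 and 86.9 CPM in the young mice, 56.9 and 64.8 at 50 weeks, 26.2 and 47.7 in the old mice and 227 and 242 in the very old mice. Both very old mice stood above the other 6 (very old minus old log2 fold change 2.71, SE 0.25, edgeR adjusted p = 1.73e-05). The transcripts came from 8 and 16 members of the very old mice, and 1 cell held 51.2% and 26.1% of them. The other 6 mice had 8 to 15 members with Cma1.

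Gzmb was 160 and 138 CPM in the young mice, 101 and 229 at 50 weeks, 155 and 178 in the old mice and 249 and 438 in the very old mice (very old minus old log2 fold change 1, SE 0.21, edgeR adjusted p = 0.0677). Among the 4 ages together it was called (edgeR adjusted p = 0.0217). In the random thinning used for the protease shares, between 80% and 100% of the members with Cma1 had Gzmb in each mouse, from 4 to 11 such members. Mcpt2, a mucosal mast cell protease, was 15.9 and 30.6 CPM in the very old mice and 29 in the middle-aged female, and at or under 0.661 in the other 5. In the middle-aged female and the very old male 1 cell held all of it. Tpsb2, a tryptase, was at 0 in the young male, the old male and both very old mice, and at most 16.8 CPM elsewhere. Tpsab1 was at 0 in all 8 mice.

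Neither basophil protease was called. Mcpt8 was 307 and 395 CPM in the young mice, 544 and 286 at 50 weeks, 885 and 193 in the old mice and 336 and 566 in the very old mice (log2 fold change 0.42, SE 0.35, edgeR adjusted p = 0.893). Prss34 was 231 and 433 CPM in the young mice, 373 and 127 at 50 weeks, 1444 and 31.5 in the old mice and 30.5 and 218 in the very old mice (log2 fold change -0.34, SE 0.78, edgeR adjusted p = 0.977). The old male was the highest and the old female among the lowest for both. Of 7 basophil genes listed 6 were tested, with 1 call (Fcer1a) and a median of 0.37, and of 10 mast cell genes 7 were tested, with 0 calls by edgeR, 3 at an unadjusted p under 0.05 upward, 1 downward and a median of 0.36.

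No enzyme of histamine or lipid mediator synthesis was called. Hdc was 209 and 202 CPM in the young mice, 210 and 216 at 50 weeks, 216 and 201 in the old mice and 176 and 202 in the very old mice (log2 fold change -0.05, SE 0.09, edgeR adjusted p = 0.973). Of 10 histamine and lipid mediator genes tested 0 were called by edgeR, and 2 had an unadjusted p under 0.05 (Hpgds and Alox5, both upward), with a median of 0.07. Alox5 was 48.7 and 58.5 CPM in the young mice and between 39 and 81.4 in older mice. Srgn, the serglycin core that packs granules, was between 2007 and 2752 CPM in the 8 mice.

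Of 14 cytokines and chemokines 6 were tested and 0 called by edgeR in older against young mice, with 2 at an unadjusted p under 0.05 upward and a median of 0.26. Ccl9, a chemokine of myeloid cells, was 123 and 101 CPM in the young mice, 95.8 and 107 at 50 weeks, 167 and 130 in the old mice and 185 and 161 in the very old mice (log2 fold change 0.52, SE 0.11, edgeR adjusted p = 0.126), and differed among the 4 ages (edgeR adjusted p = 0.0132). All 4 older mice were above the other 4. Il4 was between 4.37 and 14.7 CPM. Csf1 was between 21.3 and 37.8 CPM.

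Of 20 cytokine receptors 16 were tested and 0 called by edgeR, with 3 at an unadjusted p under 0.05 upward, 1 downward and a median of 0.23. Kit, the stem cell factor receptor, was 98.3 and 122 CPM in the young mice and between 113 and 171 in older mice (log2 fold change 0.27, edgeR adjusted p = 0.723). Il1rl1, the IL-33 receptor, was between 41.5 and 100.3 CPM. Of 27 surface and adhesion genes 22 were tested and 0 called by edgeR, 3 at an unadjusted p under 0.05 upward and 1 downward, with 19 positive signs and a median of 0.13. Cd200r3 was between 3.15 and 10.4 CPM.

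Of 28 transcription factors of these lineages 26 were tested and 0 called by edgeR, with 1 at an unadjusted p under 0.05 upward, 2 downward and a median of -0.03. Gata2 was 328 and 310 CPM in the young mice, 260 and 329 at 50 weeks, 323 and 348 in the old mice and 251 and 293 in the very old mice. Id2, an inhibitor of basic helix-loop-helix factors, was 29.2 and 38.7 CPM in the young mice, 43.6 and 72.6 at 50 weeks, 30.1 and 33.7 in the old mice and 43.9 and 96.4 in the very old mice (very old minus old log2 fold change 1.09, SE 0.2, edgeR adjusted p = 0.0281).

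Middle-aged members differed from young ones in 4 genes: 3 were higher (0.0295% of genes) and 1 lower (0.00983%). Serpina3g, a serine protease inhibitor, was 27.2 and 33.7 CPM in the young mice, 89.5 and 65.8 at 50 weeks, 44.4 and 46.4 in the old mice and 46.9 and 38.4 in the very old mice (log2 fold change 1.36, SE 0.16, edgeR adjusted p = 0.000578). Pim1, a kinase induced by cytokine receptors, was 58.2 and 72.7 CPM in the young mice, 116 and 146 at 50 weeks and between 63.4 and 91.1 in older mice (log2 fold change 1, SE 0.12, edgeR adjusted p = 0.000736). For both genes the middle-aged pair stood above all other mice. Without the young male neither was called (edgeR adjusted p = 0.149 for Serpina3g and 0.129 for Pim1), and without the young female Pim1 was not (0.112). Cenpv and Dntt were the other two (log2 fold change 0.83 and -3.17). Cenpv passed in 5 of 11 alternative settings and was not called without either young mouse (edgeR adjusted p = 0.789 without the male and 0.112 without the female) or either middle-aged mouse (0.236 and 0.136). Dntt passed in 7 of 9 settings, had a log2 fold change of 0.0018 with likely doublets left out, and was not called without the young female (edgeR adjusted p = 0.114) or the middle-aged female (0.0644).

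Among the 4 ages together 56 genes differed (0.551% of genes). By mean level 22 of them were highest in the very old mice, 18 at 50 weeks, 12 in the old and 4 in the young mice. In 17 genes both middle-aged mice were above the other 6 mice, and in 7 both were below. In 15 genes both very old mice were above the other 6 mice, and in 5 both were below, where age and library series cannot be told apart. These counts were taken only among the 56 genes already called for differing among the ages, so separation is in part built into them. The same counts over all genes were not made, so they describe the called genes only. The genes named in the rest of this paragraph were picked once their values were known. Hspd1, a mitochondrial chaperone, was 557 and 595 CPM at 50 weeks and between 352 and 405 in the other mice (edgeR adjusted p = 0.00693). Hsp90aa1, a cytosolic chaperone, was 1666 and 1719 CPM at 50 weeks and between 1026 and 1256 elsewhere (edgeR adjusted p = 0.0105). Ncl, nucleolin, was 1358 and 1364 CPM at 50 weeks and between 848 and 1071 elsewhere. Klhl24 and Btg2, an antiproliferative gene, were lowest at 50 weeks. Of 20 chaperones listed, 2 differed among the ages (Hspd1 and Hsp90aa1). The summed chaperone list was highest at 50 weeks in members (13764 and 14461 CPM against 10510 to 12090) and also outside the gate, at 17442 and 16106 CPM against 11542 to 13438 in Mpo-gated cells and 14347 and 14522 against 10730 to 13043 in all other kept cells, while in Pf4-gated cells the middle-aged female, at 10631, was level with the young female, at 10636.

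**Figure D5:**
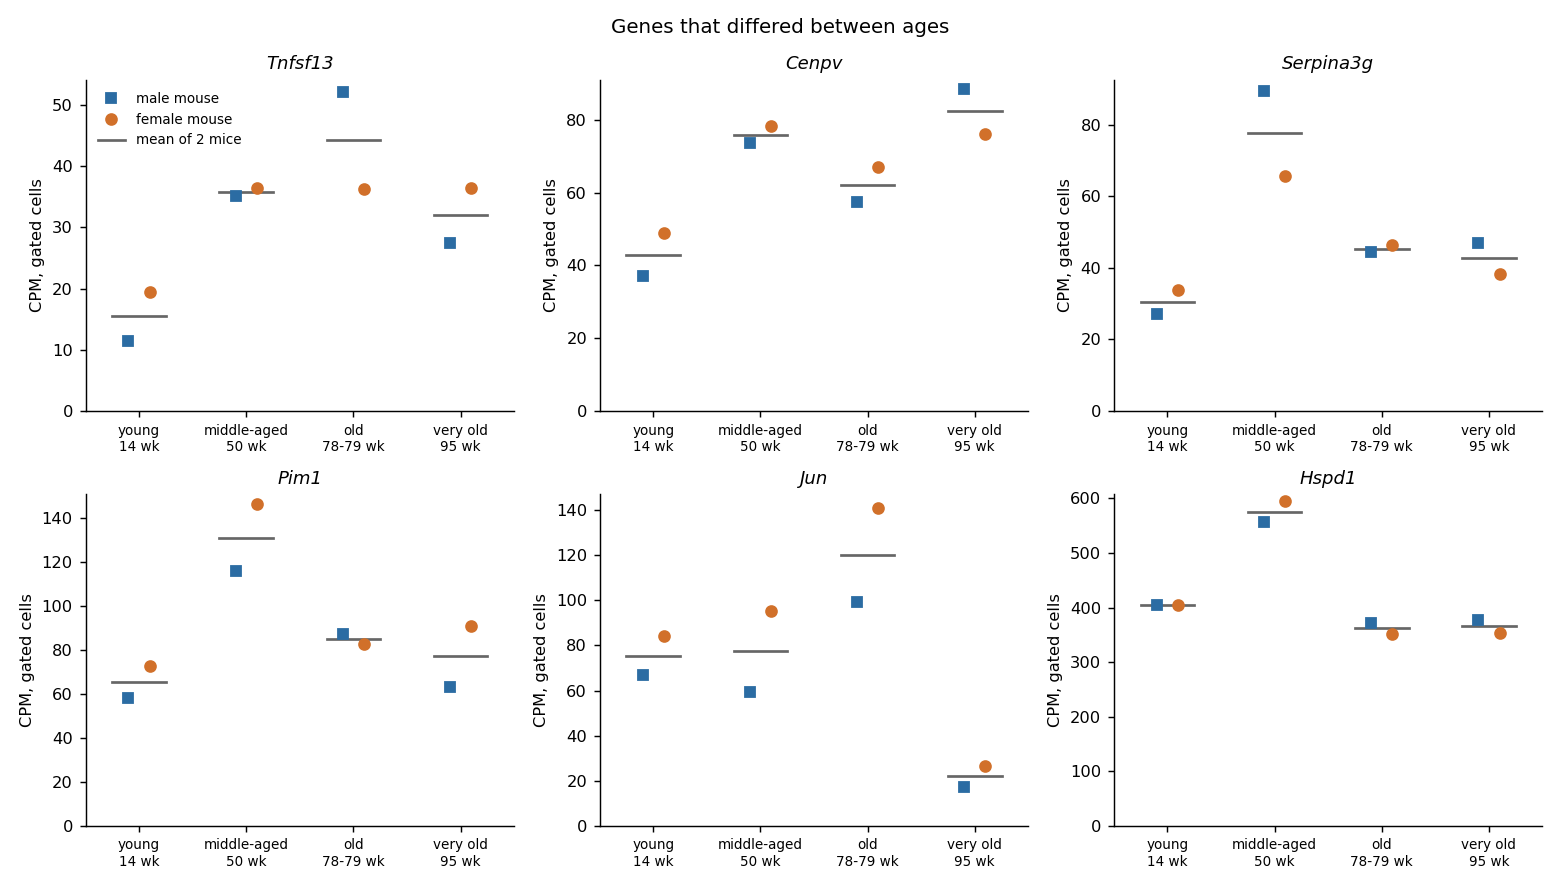
Level in CPM (y axis) in the summed members of each mouse, by age (x axis), of 6 genes that differed between ages. Squares are males, circles females and grey bars means of 2 mice; Tnfsf13 and Cenpv are lowest in the young pair, Serpina3g, Pim1 and Hspd1 are highest at 50 weeks, and Jun falls to 17.1 and 26.7 in the very old mice.

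Very old members differed from old ones in 16 genes, 9 higher (0.0885%) and 7 lower (0.0688%). Jun, an immediate early transcription factor, was 99.1 and 141 CPM in the old mice and 17.1 and 26.7 in the very old mice, and between 59.4 and 95.4 in the other 4 (log2 fold change -2.46, SE 0.16, edgeR adjusted p = 1.91e-07). Jun was also lowest in the very old libraries outside the gate: it was 7.85 and 9.99 CPM there in Mpo-gated cells against 24.6 to 50.4 in the other 6 mice, and 13.5 and 19.2 in Pf4-gated cells against 65.4 to 165. The immediate early list had a median very old minus old log2 fold change of -0.72 in members, and its summed level was 243 and 230 CPM in the very old mice against 304 to 523 in the others, 156 and 155 against 211 to 252 in Mpo-gated cells and 218 and 228 against 321 to 525 in Pf4-gated cells. Fos, its partner, was 12.7 and 7.87 CPM in the old mice and 0.61 and 0.651 in the very old mice (log2 fold change -3.95, SE 0.65, edgeR adjusted p = 0.0174). Jun, Cma1 and AY036118 were called under all 11 alternative settings and without any single mouse. S100a9, a neutrophil granule protein, was 40.9 and 6.12 CPM in the old mice and 1.83 and 1.3 in the very old mice, and 1 cell held 81.1% of it in the old male. Other genes higher in the very old mice were Epx, Prg3, Mcpt2, Ccl2, Fabp5, Id2 and Rpgrip1, and Neat1, Hist1h2ac, Cenpf and Eef2 were lower. Many of these calls ended under other choices. Of the alternative settings that could be fitted, Cenpf passed in 3 of 11, Eef2 in 4 of 11, Id2 in 5 of 11, Prg3 and Rpgrip1 in 6 of 11, Epx and S100a9 in 6 of 10, Ccl2 in 6 of 9, Mcpt2 in 7 of 10, Neat1 in 7 of 11, Hist1h2ac in 8 of 11, Fos in 8 of 9 and Fabp5 in 9 of 11, and Prg3 turned to -1.79 with the gate applied after thinning. Each was also lost when certain single mice were left out, with the highest edgeR adjusted p among those fits given in brackets. The old male or the very old male ended the calls of Fos (0.143), S100a9 (0.67), Epx (0.156) and Rpgrip1 (0.201), the old female or the very old male that of Neat1 (0.157), and the old female or the very old female that of Hist1h2ac (0.269). The young female, the old female or the very old female ended those of Ccl2 (0.676) and Id2 (0.266), the young female, the old male or the very old female that of Prg3 (0.247), either young mouse or the old female that of Mcpt2 (0.435), and the young female, either old mouse or the very old male that of Fabp5 (0.38). Cenpf was lost without either young mouse, the old female or either very old mouse (0.272), and Eef2 without any mouse but the middle-aged female (0.201). In these contrasts age and library series cannot be told apart.

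Markers of the other cells that the gate could hold gave the following levels, and their part in the results was not tested. Of 15 neutrophil progenitor genes listed 10 were tested and 0 called by edgeR, with 1 at an unadjusted p under 0.05 upward and a median of 0.13, and their summed level was 6066 and 7432 CPM in the young mice and between 5797 and 10146 in older mice. Elane, neutrophil elastase, was 1855 CPM in the old male and between 525 and 728 in the other 7. The erythroid list summed to 418 and 420 CPM in the young mice and between 280 and 383 in older mice, with 9 genes tested, 0 called by edgeR, 2 at an unadjusted p under 0.05 downward and a median of -0.44. The erythroid list holds Klf1 and the megakaryocyte list Pf4, both capped by the rule. The megakaryocyte list summed to 177 to 240 CPM over the 8 mice, the monocyte and dendritic list to 42.3 to 223 and the lymphoid list to 33.3 to 77.9, with Cd3e and Ms4a1 at 0 in every mouse. Their medians were 0.06 over 8 genes (0 called by edgeR, 1 at an unadjusted p under 0.05), -0.34 over 7 (0 called, 0 at an unadjusted p under 0.05) and -0.76 over 3 (1 called lower, Dntt). The stem cell list had 10 genes tested, 0 called by edgeR, 2 at an unadjusted p under 0.05 upward and a median of 0.07.

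Of 32 S phase genes tested 0 were called by edgeR, 2 had an unadjusted p under 0.05 downward and 25 a negative sign, with a median of -0.05. Of 30 genes of G2 and M phase 0 were called by edgeR, 1 had an unadjusted p under 0.05 upward and 24 a positive sign, with a median of 0.06. Over all genes tested 5054 signs were positive and 5114 negative, and the lists were not tested as sets. Class I histocompatibility genes had 15 tested, 0 called by edgeR, 4 at an unadjusted p under 0.05 upward and a median of 0.12. B2m, their shared light chain, was 769 and 921 CPM in the young mice and between 858 and 1228 in older mice (log2 fold change 0.27, edgeR adjusted p = 0.56). Interferon response genes had 25 tested, 0 called by edgeR, 6 at an unadjusted p under 0.05 upward and a median of 0.15, and class II genes had 6 tested, 0 called by edgeR, 1 at an unadjusted p under 0.05 upward and a median of -0.2. The actin, glycolysis and chaperone lists had medians of 0.08, -0.04 and -0.07, the D cyclin and cell cycle inhibitor list 0.11 and the immediate early list -0.02, again with 0 calls by edgeR in each and 2, 1, 4, 2 and 2 genes at an unadjusted p under 0.05. The list of genes reported higher in aged stem cells had 6 of 20 tested, 0 called by edgeR, 4 at an unadjusted p under 0.05 upward and a median of 0.73. Among these, Aldh1a1 was 0.86 and 2.64 CPM in the young mice and between 4.81 and 17.7 in older mice.

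A difference in age change between members and another cell type was found for few genes. Against Mpo-gated cells 3 of 12620 genes passed (0.0238%), and against Pf4-gated cells 24 of 11098 (0.216%). Prg3 had a log2 fold change of -0.03 in Mpo-gated cells (difference -1.22, SE 0.22, edgeR adjusted p = 0.0127). Prg2 fell in Mpo-gated cells, with a log2 fold change of -2.76 and an edgeR adjusted p of 0.0119 there (difference 1.45, SE 0.27, edgeR adjusted p = 0.0127). Trbc1, a T cell receptor constant region, was between 1.25 and 15.3 CPM in members. Against Pf4-gated cells the 5 smallest p-values were those of Apoe, Cx3cr1, Tyrobp, Tmsb10 and Dntt. Apoe, a lipid carrier, was 1297 and 1508 CPM in members of young mice and between 1435 and 1905 in those of older mice, and it fell in Pf4-gated cells (log2 fold change -0.51, edgeR adjusted p = 0.000482). Tyrobp, a signalling adaptor, fell there too (log2 fold change -1.08, edgeR adjusted p = 0.000809), against 0.23 (edgeR adjusted p = 0.851) in members.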

How the data were processed

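Droplet single-cell RNA sequencing was analysed in 8 libraries, 1 mouse each, grouped by the age and sex in the labels. The authors deposited raw UMI counts per gene and barcode made with Cell Ranger (6.0.0 per the file headers, while the study's methods name another version) on mm10. The labels and the design text name different kit versions. The members, the gene lists and the tests were chosen with earlier results of these data known.

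Cells with 1000 or more UMIs and under 10% mitochondrial UMIs were kept, doublets were left in, and the gate was applied to raw UMIs. Counts of the members were summed per mouse. Genes with low counts were filtered with edgeR (filterByExpr), TMM factors were used, and age with sex as a covariate was fitted by edgeR's quasi-likelihood test (edgeR 4.0.16, R 4.3.3) with Benjamini-Hochberg adjustment at 0.05 over all genes. Xist, Tsix and Y-linked genes were left out of the counts. CPM values for named genes use TMM library sizes, and those by cell kind are plain. The study tested differential expression with MAST on single cells. It also used pseudo-bulk profiles of each mouse to test group separation after transplantation, and took donors as replicates in human data. Here the mouse was the replicate, because cells of 1 mouse are not independent. Comparisons between cell types used 1 fit with a coefficient per mouse. Shares were compared by exact permutation (scipy 1.17.1), and their intervals are 95% Wilson intervals.

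Named genes were those with an adjusted p under 0.05, a mean of at least 10 CPM and no overlap of the groups, up to 12 in each direction, together with the basophil and mast cell markers, up to 4 genes of each other list, and the 5 smallest p-values of the other comparisons. The alternatives were 200 detected genes as the cell filter, under 5% mitochondrial UMIs, a stricter (Ms4a2 2, Cpa3 10) and a looser (Cpa3 2) gate, thinning to 4500 UMIs before the gate or before summing, leaving out the cells with the highest Scrublet scores (scanpy 1.11.5, 54 members), RLE size factors, no low-count filter, no sex term, DESeq2 (1.42.0), and each mouse left out in turn. Leaving out the very old libraries and the exact mean over all thinnings were added after the data were seen. Each member kept 1 random thinning in all settings, while the gate after thinning and the sums of thinned cells had draws of their own. On simulated counts for older against young mice (10011 genes, 200 changed), 73% of genes changed by a log2 fold of 1 and 96% of those changed by 2 were recovered, with 12 false calls of 181. Summed counts per mouse ran from 1621248 to 4444078 UMIs.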

Additional observations from a re-analysis of the deposited data

Results flagged for a closer look

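Among the 4 older mice, 2 of 19 genes and measures tested had 1 mouse far from the others by Dixon's ratio at its 95% level, where chance gives about 1 in 20. Prss34 had a ratio of 0.867, with the old male at 1444 CPM and the others between 30.5 and 218. Elane had a ratio of 0.99, with the old male at 1855 CPM and the others between 561 and 574.

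The age difference in members differed from that in Mpo-gated cells for 3 genes by edgeR. For Trbc1 the difference was 6.09 on the log2 scale (edgeR adjusted p = 3.08e-05), at levels of 1.25 to 15.3 CPM in members. For Prg3 it was -1.22 and for Prg2 1.45 (edgeR adjusted p = 0.0127 for each).

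Against Pf4-gated cells, the difference was 0.79 for Apoe (edgeR adjusted p = 1.88e-08), 5.59 for Cx3cr1 (3.04e-05), 1.28 for Tyrobp (6.92e-05), 0.48 for Tmsb10 (0.00245) and -2.44 for Dntt (0.00423). Cx3cr1 lay between 7.93 and 40.5 CPM in members, and Tmsb10 between 646 and 846.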

How the results depend on the processing

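Mice were not paired across ages, because the labels give no replicate numbers that pair them. Sex was a term of the edgeR fit of members, but the permutation tests of the shares took no account of it. The share of members was higher in the male than in the female at 14, 50 and 78 to 79 weeks, and lower at 95 weeks. The older minus young share of members was 0.084 points without the very old libraries and without thinning, and -0.00109 under 5% mitochondrial UMIs. The difference in the Mcpt8 share was 1.04 in 1 random thinning and 1.37 as the mean over all thinnings, added after the data were seen. It was -4.73 points unthinned and, with the same draw kept for the same cells, 4.34 with the stricter gate, 1.58 with the looser gate and 4.85 under 5% mitochondrial UMIs, and 4.24 with the gate after thinning, which has a draw of its own. It ranged from -5.42 to 7.49 with 1 mouse left out. That in the mast cell protease share was 0.898, 0.766 as the mean over all thinnings, 1.58 under 5% mitochondrial UMIs, 2.85 with the gate after thinning, 1.9 unthinned, 0.575 and 0.466 with the stricter and looser gates and 0.759 without high doublet scores, and ranged from -0.974 to 2.77. The 4 genes higher and 4 lower in older mice became 1 and 2 with the stricter gate, 1 and 0 with the gate after thinning, 1 and 1 without high doublet scores, 2 and 0 with thinned sums, 28 and 24 with no low-count filter, 1 and 2 without the sex term and 1 and 1 with DESeq2, and 2 were lower with the looser gate. With 1 mouse left out they ranged from 0 (without the young male) to 13 (without the old female) and from 0 (without the young female) to 9 (without the old male). Of the 8 genes, 8 were also called with RLE factors, 200 detected genes or no filter, 5 under 5% mitochondrial UMIs or with the looser gate, 3 with the stricter gate or without sex, 2 with thinned sums, with DESeq2 or without high doublet scores, 1 with the gate after thinning, 6 without the very old libraries, and between 0 (without the young female) and 8 with 1 mouse left out (1 without the young male). The 56 genes among the 4 ages became 17 with the stricter gate, 6 with the gate after thinning, 24 with thinned sums, 414 with no filter, 18 without sex and 31 with DESeq2, and ranged from 20 (without the young female) to 146 (without the very old male). The 3 and 1 genes at 50 weeks became 5 and 7 under 5% mitochondrial UMIs, 8 and 4 with the looser gate, 0 and 0 with the gate after thinning, 38 and 39 with no filter and 10 and 4 without the very old libraries, and the lower count was 0 without high doublet scores and with thinned sums. They ranged from 0 to 15 and from 0 to 10 with 1 mouse left out. The 9 and 7 genes of very old against old mice became 3 and 2 with the stricter gate and with the gate after thinning, 53 and 68 with no filter and 2 and 2 without sex, with 14 higher under 5% mitochondrial UMIs and 4 with DESeq2. They ranged from 7 to 16 and from 3 (without the very old male) to 23 (without the very old female). The 3 genes that differed from Mpo-gated cells became 8 under 5% mitochondrial UMIs, 5 with the stricter gate, 0 with the gate after thinning, 1 with thinned sums, 13 with no filter and 1 with DESeq2, and ranged from 3 to 14. The 24 that differed from Pf4-gated cells became 8 under 5% mitochondrial UMIs and with the gate after thinning, 14 without high doublet scores and with thinned sums, 49 with no filter and 4 with DESeq2, and ranged from 6 (without the young male) to 46 (without the middle-aged female). Single genes changed sign in 4 cases: Ms4a2 ranged from -0.075 (without the very old female) to 0.32 with 1 mouse left out, Fcer1g ranged from -0.021 (without the old male) to 0.48, Dntt at 50 weeks was 0.0018 without high doublet scores, and Prg3 in very old against old mice was -1.79 with the gate after thinning. The gate after thinning and the thinned sums tested fewer genes (5048 and 7676); the cause of the other changes was not tested.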
